A study of Homo sapiens with 12 samples.

Results

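The long intergenic non-coding RNAs (lincRNAs) of parental hTERT-RPE1 cells were followed after knockdown of CENPF, of FOXM1 or of both. The set held 195 genes of the 417 that the authors' deposited edgeR tables class as lincRNA, out of 14862 genes in the normalized count table. A lincRNA entered the set when its mean over all 12 libraries reached 50 normalized counts, and the remaining 222 were under that value. The lincRNAs were thus selected on their mean level, so the levels below are a description of the set and were not tested. All 195 passed the filter used for the tests, 10 normalized counts or more in 3 libraries or more.

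A lincRNA is an RNA transcribed from its own locus, spliced and polyadenylated much like an mRNA, without a conserved protein product. Some act in the nucleus as scaffolds or at their own chromosome, such as XIST on the inactive X chromosome, MALAT1 in nuclear speckles and NEAT1 in paraspeckles. Others bind proteins in the cytoplasm, such as NORAD, which is known for its part in stable chromosome numbers, or serve as precursors of microRNAs and small nucleolar RNAs. FOXM1 is a forkhead transcription factor of the G2 and M phases, and CENPF is a large protein of the kinetochore and one of the genes FOXM1 is known to drive.

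hTERT-RPE1 derives from human retinal pigment epithelium and was made immortal by telomerase, and the study asked what the knockdowns do to the transcriptome. The groups were cells with both siRNAs (siCENPF+siFOXM1), with the siRNA to CENPF alone (siCENPF), with that to FOXM1 alone (siFOXM1) and with a negative-control siRNA (siNeg). All groups are labelled as parental cells, the 3 knockdown groups with a KD genotype and siNeg with the genotype WT. All were transfected at 20 nM and collected after 48 hours, and polyA RNA was sequenced from 3 libraries of each group, numbered 1 to 3 in the labels. The sources used here do not give the siRNA sequences, nor whether a reagent was 1 duplex or a pool, nor whether the double knockdown took 20 nM of each siRNA or in total. Nothing in the labels says that the 3 libraries came from separate cultures, so p-values measure the spread between these libraries, which may be technical.

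The 12 libraries held 13671250 to 35411230 reads counted in genes, of which the lincRNAs took 39015 to 96804 reads. CENPF stood at 15.8% of its siNeg mean in siCENPF+siFOXM1 and at 10.8% in siCENPF. FOXM1 stood at 17.7% of its siNeg mean in siCENPF+siFOXM1 and at 15.2% in siFOXM1. Each single siRNA left the other target near its siNeg mean, CENPF at 89.8% in siFOXM1 and FOXM1 at 86.2% in siCENPF. Of 11 markers of differentiated retinal pigment epithelium, 6 stayed under 0.1 FPKM in every library (RPE65, RLBP1, TYR, TYRP1, TTR and LRAT), while BEST1 ran from 26.9 to 62.4 FPKM. PMEL, MITF, OTX2 and SERPINF1 lay between 0.0648 and 1.28 FPKM. The 3 mesenchymal markers summed to 639 to 776 FPKM and the 5 general epithelial markers to 42.1 to 67.2 FPKM. The epithelial sum was carried by KRT8 and KRT18, while KRT19, CDH1 and EPCAM stayed under 0.1 FPKM in every library. The 5 blood and endothelial markers summed to at most 0.214 FPKM and the 4 neural markers to 3.31 to 4.71 FPKM. The neural sum was carried by SYT1 and MAP2, while RBFOX3 and GFAP stayed under 0.1 FPKM. In bulk RNA, fewer cells making a transcript and less of it per cell cannot be told apart.

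The set spanned a wide range of levels, and a few well-known RNAs led it. LINC00657, the gene of NORAD, averaged 5604 normalized counts over the 12 libraries, MALAT1 3553, XIST 2343 and NEAT1 2065. They were followed by RP11-867G23.3 at 1495, by the imprinted MEG3 at 1338, by TSIX, the antisense partner of XIST, at 1275, and by C11orf95 at 1038 normalized counts. LINC00704, now named MANCR, and RP11-79P5.2, now FOXD1-AS1, closed the 10 highest at 985 and 846. These 10 held 36.0% of the counts of the set. The median of the 195 means was 141, 8 lincRNAs averaged 1000 or more and 68 averaged 50 to 100. The lincRNAs just inside the minimum were hsa-mir-8072 and RP1-151F17.2 at 51.1 each and AF127936.7 at 50.1. Those just outside it were FLVCR1-AS1 at 49.8, RP11-452F19.3 at 49.4 and RP11-315D16.4 at 49.1.

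**Figure D1:**
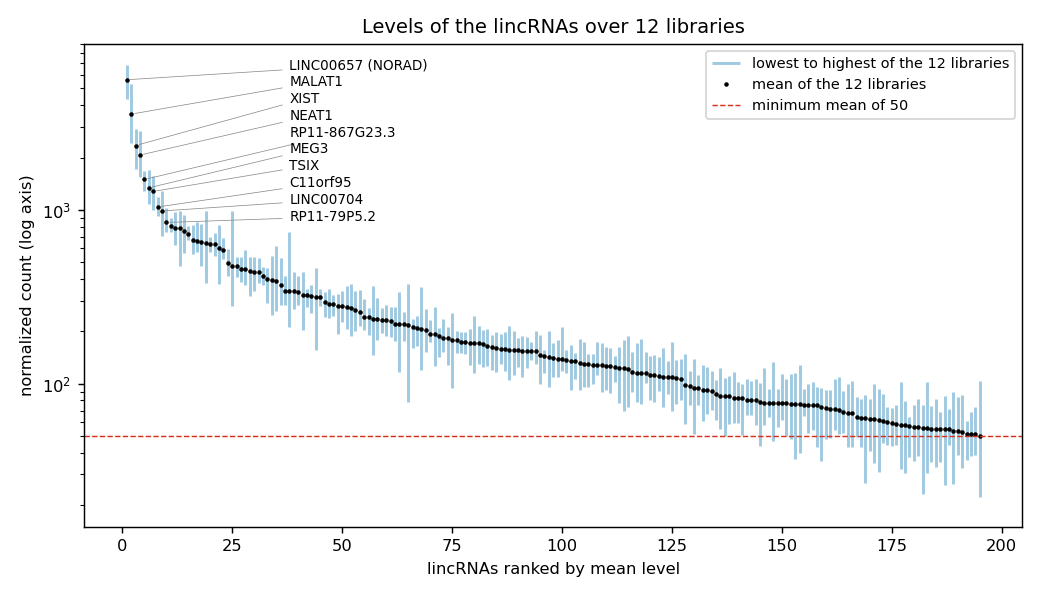
Normalized counts (log axis) of the 195 lincRNAs, ranked by their mean over all 12 libraries. Black points are means, blue lines run from the lowest to the highest library, and the dashed line is the minimum mean of 50. The 10 highest are named, from LINC00657 (NORAD) at 5604 to RP11-79P5.2 at 846.

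Length changed this order. Counts per kilobase of merged exon were taken for the 173 lincRNAs with exons in GENCODE v29. RP11-79P5.2 led with 1995 normalized counts per kilobase, ahead of RP11-530C5.1 at 1242, RP11-203M5.8 at 1226, RP3-430N8.10 at 1094 and LINC00657 at 1049.6. Exon bases shared with opposite-strand exons, summed as described below, were 424 of 424 in RP11-79P5.2 and 248 of 354 in RP11-530C5.1. They were 492 of 492 in RP11-203M5.8 and 264 of 264 in RP3-430N8.10, while LINC00657 shares 0. What share of the reads behind these densities came from either strand was not tested. The small nucleolar RNA host SNHG8 reached 821 and LINC00704 513 normalized counts per kilobase. The median of the 173 was 70.6 normalized counts per kilobase. MALAT1, MEG3, NEAT1 and XIST have long transcripts and ranked lower on this scale, at 402, 57.6, 90.7 and 92.7 normalized counts per kilobase.

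The label lincRNA held for most of the set in a later annotation. GENCODE v29 lists 154 of the 195 as lincRNA, 6 as protein-coding (C11orf95 among them, now named ZFTA), 13 as another class, and does not list 22 under the same gene identifier. Intergenic was a looser fit, since 60 of the 195 spans overlap a protein-coding gene on the opposite strand and 32 overlap one on the same strand, while 107 overlap none. A further property was a shared start: 29 lincRNAs begin within 1000 bases of a protein-coding gene that runs the other way. In 14 of the 173 lincRNAs with listed exons, the exon bases shared with exons of the opposite strand summed to the exon length or more. The sum runs over all genes there, so a base under several of them counts repeatedly, as in the shared bases given below. In RP11-513I15.6 the sum was 9283, above its exon length of 8287. The sources used here do not give the strand setting of the counting. Reads on exon bases that a lincRNA shares with a partner thus cannot be told apart.

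None of the 195 lincRNAs passed the test in any comparison with siNeg when replicate number was left out of the model. The test was limma with Benjamini-Hochberg adjustment over 14857 genes at a threshold of 0.05. For siCENPF+siFOXM1 against siNeg the count was 0, where 0.458% of all genes tested were called, with 12 lincRNAs at an unadjusted p under 0.05. It was 0 for siCENPF, against 0.337% of all genes, with 8 at an unadjusted p under 0.05. It was 0 again for siFOXM1, against 0.66% of all genes, with 18 at an unadjusted p under 0.05. The edgeR quasi-likelihood test on reads recovered from the deposited CPM also called 0 in each. In the authors' deposited table MIR22HG passed for siCENPF+siFOXM1 (0.558% of all genes), none passed for siCENPF (0.189%), and RP11-215G15.5 and RP11-844P9.2 passed for siFOXM1 (0.743%).

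The replicate number in the labels carried much of the spread, and a model with the number as a block made calls. With the block, limma with Benjamini-Hochberg adjustment called 12 lincRNAs for siCENPF+siFOXM1 against siNeg, 8 higher and 4 lower, where 7.9% of all genes tested were called. For siCENPF it called 7, 6 higher and 1 lower, against 4.52% of all genes. For siFOXM1 it called 16, 11 higher and 5 lower, against 8.72% of all genes. These are 6.15%, 3.59% and 8.21% of the set, below or near the share of all genes, so the counts are not a result about lincRNAs as a class. In all, 22 lincRNAs were called with the block in at least 1 of the 3 comparisons, and MIR22HG, MEG3 and RP11-758N13.1 in every one. The 3 comparisons share the same siNeg libraries, so a high or low siNeg library moves all of them together.

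The whole set shifted little. The median log2 fold change of the 195 lincRNAs was 0.06 in siCENPF+siFOXM1, 0.01 in siCENPF and 0.05 in siFOXM1, each against siNeg, while the medians of all genes tested were -0.0026, -0.00059 and -0.00065. More lincRNAs stood above 0 than below it in siCENPF+siFOXM1 (125 of 195) and in siFOXM1 (124 of 195), and 99 of 195 did in siCENPF. Among all genes, 49.3% to 49.8% stood above 0. The lincRNAs took 0.308 ± 0.00519% of the reads in siCENPF+siFOXM1, 0.297 ± 0.0143% in siCENPF, 0.304 ± 0.0109% in siFOXM1 and 0.288 ± 0.0229% in siNeg (SD, n = 3 each). By two-sided exact permutation tests on that share, p was 0.4, 0.7 and 0.3 against siNeg (0.6, 0.7 and 0.6 after Benjamini-Hochberg adjustment over the 3 tests), and 3 libraries against 3 cannot give less than 0.1.

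**Figure D2:**
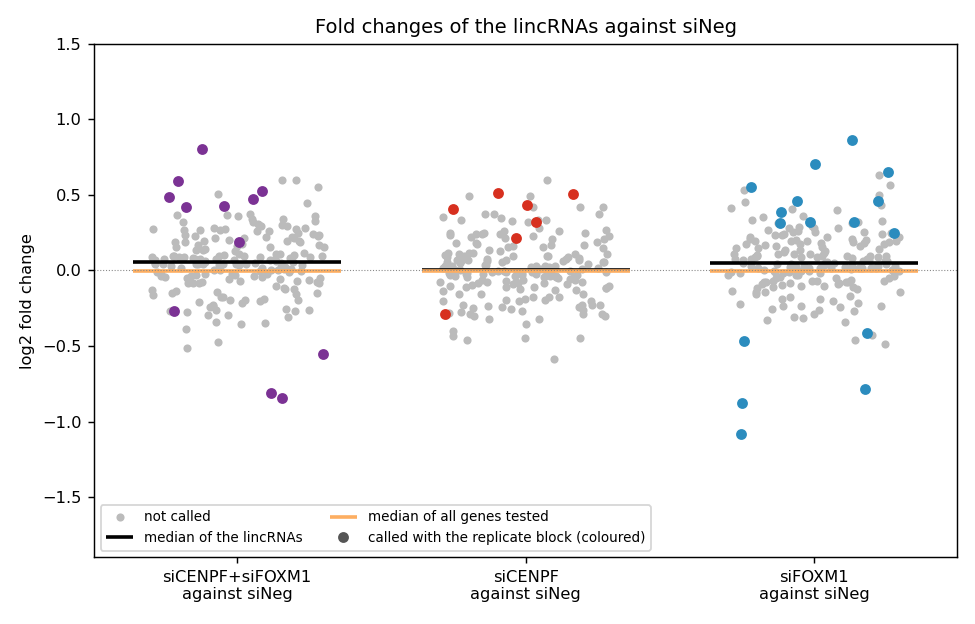
Log2 fold change against siNeg of each of the 195 lincRNAs in siCENPF+siFOXM1, siCENPF and siFOXM1. Grey points were not called, coloured points passed limma with the replicate block (12, 7 and 16), black bars are medians of the lincRNAs (0.06, 0.01 and 0.05) and orange bars medians of all genes tested. The points run from -0.84 to 0.81, from -0.59 to 0.60 and from -1.08 to 0.86.

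The smallest p-value with both siRNAs belonged to a precursor of a microRNA. In 10 of the 195 lincRNAs a microRNA hairpin of RefSeq lies within the span on the same strand, 14 hairpins in all with 23 mature sequences. PolyA libraries read the precursor and not the mature microRNA. Of the 23, 9 are shown, chosen as well-known arms of MIR22HG, MEG3 and 4 other hosts, with the seed, bases 2 to 8, in capitals (RefSeq, GRCh38.p14), since the seed is the part that pairs with target mRNAs. miR-221 and miR-222 share a seed, as do miR-30a and miR-30c.
hsa-miR-22-3p, in MIR22HG: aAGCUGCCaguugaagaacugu
hsa-miR-22-5p, in MIR22HG: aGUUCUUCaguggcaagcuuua
hsa-miR-770-5p, in MEG3: uCCAGUACcacgugucagggcca
hsa-miR-221-3p, in RP6-99M1.2: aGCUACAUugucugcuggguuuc
hsa-miR-222-3p, in RP6-99M1.2: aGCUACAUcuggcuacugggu
hsa-miR-155-5p, in MIR155HG: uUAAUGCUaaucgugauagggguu
hsa-miR-30a-5p, in LINC00472: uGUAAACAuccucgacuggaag
hsa-miR-30c-5p, in LINC00472: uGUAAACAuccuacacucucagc
hsa-miR-29b-3p, in the gene labelled MIR29A: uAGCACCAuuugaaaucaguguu

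MIR22HG, the host of miR-22 (chr17:1711493-1717174, minus strand, hg38), was higher in every knockdown. In libraries 1 to 3 it had 538, 538 and 465 normalized counts with siCENPF+siFOXM1, 431, 518 and 432 with siCENPF, 496, 508 and 404 with siFOXM1 and 357, 344 and 319 with siNeg. Every knockdown library lay above every siNeg library. The log2 fold change was 0.59 ± 0.09 in siCENPF+siFOXM1 (SE from the fit with the block, as for all siRNA comparisons of lincRNAs below), with a limma Benjamini-Hochberg adjusted p of 0.053 without and 5.52e-05 with the replicate block. It was 0.43 ± 0.09 in siCENPF (adjusted p 0.282 by limma without the block, 0.003 with it) and 0.46 ± 0.09 in siFOXM1 (0.137 and 0.000964). With the block and all libraries of 1 number left out, MIR22HG kept an adjusted p (limma) under 0.05 in each case except siCENPF without number 2, where it was 0.0541. MIR22HG shares no exon base with exons of the opposite strand. Its span overlaps WDR81 there, and WDR81 was not called, with log2 fold changes of 0.11, 0.16 and 0.10 in siCENPF+siFOXM1, siCENPF and siFOXM1.

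MEG3, an imprinted lincRNA of the DLK1-DIO3 region expressed from the maternal chromosome (chr14:100779410-100861031, plus strand, hg38), had 1511, 1333 and 1608 normalized counts with siCENPF+siFOXM1, 1399, 1094 and 1686 with siCENPF, 1416, 1248 and 1452 with siFOXM1 and 1079, 1148 and 1075 with siNeg. Both groups that held the FOXM1 siRNA lay wholly above siNeg, while siCENPF library 2 fell among the siNeg libraries. The log2 fold changes were 0.43 ± 0.09, 0.32 ± 0.09 and 0.32 ± 0.09 (SE), with limma Benjamini-Hochberg adjusted p of 0.352, 0.788 and 0.573 without and 0.00341, 0.04 and 0.0266 with the block. With the block and number 1, 2 or 3 left out, the adjusted p (limma) was 0.0695, 2.1e-06 and 0.0313 in siCENPF+siFOXM1, 0.284, 7.59e-06 and 0.468 in siCENPF and 0.205, 0.000149 and 0.152 in siFOXM1. Without number 1 it was called in no comparison, and without number 3 in siCENPF+siFOXM1 alone. MEG8, the next lincRNA downstream in the same imprinted region, averaged 18.6 normalized counts, under the minimum for the set.

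Promoter sequences of the lincRNAs called with the block in all 3 comparisons are shown here, 250 bases before to 50 after the start that RefSeq gives (GRCh38.p14), because FOXM1 is a transcription factor. Capitals mark a match, on either strand, to the CCAAT box (CCAAT) or the TATA box (TATAAA). The cell cycle element CHR (TTTGAA) and the forkhead core (GTAAACA) were searched too and are not in these windows. RefSeq starts MEG3 46698 bases inside the deposited span, MIR22HG 964 bases inside it and RP11-758N13.1 (GREM1-AS1) 142 bases from its deposited start.
MIR22HG, chr17:1716161-1716460, minus strand: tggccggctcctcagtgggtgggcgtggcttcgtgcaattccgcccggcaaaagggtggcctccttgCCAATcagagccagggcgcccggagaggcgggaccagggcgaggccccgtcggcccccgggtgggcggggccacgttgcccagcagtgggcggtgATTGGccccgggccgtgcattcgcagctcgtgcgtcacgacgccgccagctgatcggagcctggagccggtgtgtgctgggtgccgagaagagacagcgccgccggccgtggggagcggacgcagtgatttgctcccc
MEG3, chr14:100825858-100826157, plus strand: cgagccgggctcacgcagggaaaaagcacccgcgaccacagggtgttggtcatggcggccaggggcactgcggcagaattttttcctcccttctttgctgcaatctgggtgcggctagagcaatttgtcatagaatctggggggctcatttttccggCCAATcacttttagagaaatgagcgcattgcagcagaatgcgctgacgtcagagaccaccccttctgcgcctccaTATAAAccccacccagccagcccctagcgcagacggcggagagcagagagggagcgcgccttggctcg
RP11-758N13.1, chr15:32718816-32719115, minus strand: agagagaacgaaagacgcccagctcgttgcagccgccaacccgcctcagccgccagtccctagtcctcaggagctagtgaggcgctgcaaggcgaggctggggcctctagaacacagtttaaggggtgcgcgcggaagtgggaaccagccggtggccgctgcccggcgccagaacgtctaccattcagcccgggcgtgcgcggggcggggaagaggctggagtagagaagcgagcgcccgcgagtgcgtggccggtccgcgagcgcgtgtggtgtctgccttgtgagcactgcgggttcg
Promoters could be matched for 95 of the 195 lincRNAs. The CCAAT box was in 43 of the 95 (45.3%), against 34.6% of 35116 RefSeq promoters of the same length, and the TATA box in 10 (10.5%), against 11.5%. The CHR letters were in 14 (14.7%), against 15.2%, and the forkhead letters in 2 (2.11%), against 3.42%. Positions of matches were listed for lincRNAs named for their level, for replicate number, or for a call with groups that did not overlap. Of those with a matched promoter, LINC00704 alone held the forkhead core, 63 to 57 bases before its start. Positions were not listed for lincRNAs named after their values were seen. Several named lincRNAs that were called lower in siFOXM1 had no matched promoter. Whether they hold the forkhead core was thus not tested. These matches are descriptions of letters and not of bound sites.

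The remaining microRNA hosts were not called. Of 26 names on a list of microRNA hosts, 8 are in the set. All 8 had positive log2 fold changes in siCENPF+siFOXM1 and in siCENPF and 7 in siFOXM1 (8 in the FPKM table, and as few as 5 in each comparison under other processing or with libraries left out), with list medians of 0.22, 0.16 and 0.20 beside all-gene medians near 0, and only MIR22HG and MEG3 were called, with the block. RP6-99M1.2, the host of miR-221 and miR-222, had 173, 366 and 231 normalized counts with siCENPF+siFOXM1, 170.1, 342 and 179 with siCENPF, 146, 326 and 247 with siFOXM1 and 192, 305 and 165 with siNeg. In each group its library 2 was the highest, and the groups overlapped. The next hosts were lower. MIR155HG, host of the immune regulator miR-155, stood at 38 to 64.1 normalized counts over all libraries, and the gene labelled MIR29A, which GENCODE v29 names LINC-PINT, at 87.8 to 159.6. LINC00472, whose span holds miR-30a and miR-30c-2, stood at 76.1 to 138 normalized counts, and MIR4458HG at 58 to 106. MIR4435-1HG and LINC00152 (CYTOR), near-identical copies on chromosome 2, averaged 808 and 633 normalized counts, and how their shared reads were assigned is uncertain.

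NORAD, the most abundant lincRNA, was called slightly higher, with the block, in the groups that held the CENPF siRNA. LINC00657 (chr20:36045622-36050960, minus strand, hg38) had 5845, 6315 and 5281 normalized counts with siCENPF+siFOXM1, 5440.4, 6768 and 5619 with siCENPF, 5437, 6136 and 4988 with siFOXM1 and 4951, 6117 and 4349.9 with siNeg. The groups overlapped, but within each number every knockdown library was above its siNeg library. Log2 fold changes were 0.19 ± 0.05, 0.22 ± 0.05 and 0.11 ± 0.05 (SE). With the block the limma Benjamini-Hochberg adjusted p was 0.0285, 0.0164 and 0.223, and without it 0.86, 1 and 0.933. Leaving out number 1 or number 3 under the block raised the first 2 to between 0.0677 and 0.35. Between siCENPF+siFOXM1 and siFOXM1, NORAD differed by 0.08 ± 0.05 and was not called (limma with the block, Benjamini-Hochberg adjusted p 0.8). A difference between groups with and without the CENPF siRNA was thus not shown. RBMX, a protein that NORAD binds, was called lower in siCENPF+siFOXM1 with the block only. TP53TG1, the other lincRNA in the set from the list on genome stability and stress, had 41.6, 75.5 and 47.2 normalized counts with siCENPF+siFOXM1, 58.4, 102 and 32.1 with siCENPF, 49, 57.9 and 42.4 with siFOXM1 and 60.5, 89.6 and 38.7 with siNeg, with no call.

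The nuclear lincRNAs NEAT1, MALAT1, XIST and JPX were not called in any comparison with siNeg, with or without the block. MALAT1 had 5273, 3093 and 3431 normalized counts with siCENPF+siFOXM1, 4186, 3231 and 3382 with siCENPF, 4128, 2988 and 3849 with siFOXM1 and 3680.1, 2975 and 2424 with siNeg. Its library 1 was the highest in every group, and the groups overlapped. NEAT1, which builds paraspeckles, had 2027, 2166 and 2392 normalized counts with siCENPF+siFOXM1, 2027, 1853 and 2847 with siCENPF, 1655, 2116 and 2407 with siFOXM1 and 1550.1, 2144 and 1601 with siNeg. Library 3 was the highest in each knockdown group, while library 2 was in siNeg. The log2 fold changes of this list ran from 0.19 to 0.36 in siCENPF+siFOXM1, from -0.02 to 0.34 in siCENPF and from 0.11 to 0.28 in siFOXM1. XIST and TSIX lie on opposite strands. Summed as above, XIST shares 7583 of its 25264 exon bases with exons of the other strand, and TSIX 7566 of its 37027. Reads of XIST and TSIX on shared bases cannot be told apart. Of 12 paraspeckle proteins, none was called without the block, and PSPC1, a core protein of paraspeckles, was called lower in siCENPF+siFOXM1 and in siFOXM1 with it.

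The hosts of small nucleolar RNAs and the regulators of proliferation in the set were likewise uncalled. They are 5 of 27 names on a list of such hosts and 3 of 22 on a list of regulators. SNHG8, SNHG15, SNHG18, EPB41L4A-AS1 and RP11-304L19.5 (SNHG19) had median log2 fold changes of 0.15 in siCENPF+siFOXM1, 0.11 in siCENPF and 0.12 in siFOXM1, with 0 of 5 called with or without the block. With the block, 4.52% to 8.72% of all genes tested were called. The lack of calls among so few genes is thus not a result about either list. SNHG8 stood at 562 to 938 normalized counts over the 12 libraries, SNHG15 at 193 to 329 and SNHG18 at 187 to 372. CRNDE, a lincRNA raised in many tumours, stood at 213 to 344, LINC00152 at 572 to 698 and LINC00511 at 73.6 to 160.2 normalized counts. Their log2 fold changes against siNeg lay between -0.09 and 0.11. Proteins that degrade RNA, or act with non-coding RNA in silencing, were looked at as well. Of 18 genes of the nuclear RNA exosome, 14 of nonsense-mediated decay and 10 of Polycomb repressive complex 2, SUZ12 alone was called without the block in any comparison with siNeg, lower in siFOXM1. SUZ12 is a core subunit of the Polycomb complex and had a log2 fold change of -0.68 there (limma, Benjamini-Hochberg adjusted p 0.00926). With the block, SUZ12, PHF19 and EXOSC9 were lower in siCENPF+siFOXM1, which is 2 of the 10 Polycomb genes and 1 of the 18 exosome genes, where 7.9% of all genes tested were called. In siFOXM1 the block gave lower calls to 4 of the 18 exosome genes (EXOSC9, DIS3, SKIV2L2 and MPHOSPH6), to CASC3 among the 14 of nonsense-mediated decay and to SUZ12 among the 10 of Polycomb, against 8.72% of all genes. In siCENPF it called 0 genes of the 3 lists, against 4.52% of all genes.

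Less studied lincRNAs rose as well, with the block. RP11-758N13.1, now named GREM1-AS1 (chr15:32717270-32719007, minus strand, hg38), had 713, 554 and 695 normalized counts with siCENPF+siFOXM1, 987, 465 and 719.9 with siCENPF, 845, 491 and 724 with siFOXM1 and 616, 378 and 493 with siNeg. The groups overlapped, with number 1 the highest and number 2 the lowest library of each, and within each number every knockdown library was above siNeg. The log2 fold changes were 0.42 ± 0.09, 0.51 ± 0.09 and 0.46 ± 0.09 (SE), with limma Benjamini-Hochberg adjusted p of 0.00493, 0.00105 and 0.00174 with the block and 0.855, 1 and 0.798 without. With the block and number 1, 2 or 3 left out, the adjusted p (limma) was 0.00769, 0.0135 and 0.115 in siCENPF+siFOXM1, 0.0448, 2.54e-05 and 0.039 in siCENPF and 0.0138, 0.000277 and 0.0742 in siFOXM1.

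RP11-380J14.1, now LINC02783, had 85.2, 90.2 and 90.4 normalized counts with siCENPF+siFOXM1, 45.2, 89.8 and 75.9 with siCENPF, 66.4, 115 and 102 with siFOXM1 and 36.6, 59.6 and 57.9 with siNeg. Its siCENPF+siFOXM1 and siFOXM1 libraries lay above every siNeg library, at log2 fold changes of 0.81 ± 0.19 and 0.86 ± 0.19 (limma with the block, Benjamini-Hochberg adjusted p 0.00773 and 0.00392). With number 1, 2 or 3 left out, the blocked adjusted p (limma) was 0.125, 0.0162 and 0.056 in siCENPF+siFOXM1 and 0.0192, 0.0319 and 0.0539 in siFOXM1.

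RP11-271K21.11 was the lincRNA with the smallest blocked p in siFOXM1. It had 139, 246 and 207 normalized counts with siCENPF+siFOXM1, 144, 276 and 211 with siCENPF, 181, 358 and 232 with siFOXM1 and 119, 213 and 151 with siNeg. Within each number siFOXM1 was the highest group and siNeg the lowest. The log2 fold change in siFOXM1 was 0.65 ± 0.12 (limma, Benjamini-Hochberg adjusted p 0.000456 with the block, 0.676 without). With number 1, 2 or 3 left out, the blocked adjusted p (limma) was 0.00718, 0.0122 and 0.0119. RP11-271K21.11 overlaps TFDP2, a subunit of E2F transcription factors, on the same strand, so unspliced reads of the pair cannot be told apart. TFDP2 averaged 33.3 normalized counts and had a log2 fold change of -0.04 in siFOXM1.

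Further rises with the block came from RP5-1172A22.1 (LINC01638) and SFTA1P. RP5-1172A22.1 had log2 fold changes of 0.52 ± 0.12 in siCENPF+siFOXM1 and 0.41 ± 0.12 in siCENPF (limma with the block, Benjamini-Hochberg adjusted p 0.00488 and 0.0463), and 0.20 ± 0.12 in siFOXM1, where it was not called. SFTA1P had 0.48 ± 0.13 in siCENPF+siFOXM1 and 0.52 ± 0.13 in siCENPF (adjusted p by the same test 0.0234 and 0.02), and -0.11 ± 0.13 in siFOXM1, again without a call. RP11-620J15.3 rose in siCENPF+siFOXM1 at 0.49 ± 0.14, and CTC-273B12.8, RP11-513I15.6 and CTB-175P5.4 rose in siFOXM1 at 0.39 ± 0.11, 0.25 ± 0.07 and 0.32 ± 0.10 (limma with the block, Benjamini-Hochberg adjusted p 0.0232, 0.0204, 0.0245 and 0.047 in this order). These were named after their values were seen, since limma with the block called them although their groups overlapped. CTD-3131K8.2 (PGLS-DT), which starts divergently from PGLS, rose in siFOXM1 at 0.32 ± 0.10 (limma with the block, Benjamini-Hochberg adjusted p 0.0485). RP11-400K9.3 and RP11-400K9.4, which overlap on opposite strands of chromosome 8, rose in siFOXM1 at 0.70 ± 0.20 and 0.55 ± 0.11 (limma with the block, Benjamini-Hochberg adjusted p 0.0301 and 0.00208). RP11-400K9.4 had 366, 344 and 322 normalized counts in siFOXM1 and 218, 280.2 and 210.1 in siNeg, with no overlap of the 2 groups. With number 1 or number 3 left out, none of these rises was called by limma with the block. With number 2 left out, RP5-1172A22.1 in siCENPF+siFOXM1 and CTC-273B12.8, CTD-3131K8.2, RP11-400K9.3 and RP11-400K9.4 in siFOXM1 were called.

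Of the falls called with the block, 4 were in siCENPF+siFOXM1, 1 in siCENPF and 5 in siFOXM1. RP11-215G15.5 (chr5:10654220-10657816, plus strand, hg38) had 50.5, 43.6 and 58.3 normalized counts with siCENPF+siFOXM1, 35.1, 66 and 94.7 with siCENPF, 46.9, 35.5 and 46.6 with siFOXM1 and 89.9, 85.4 and 99.2 with siNeg. Libraries of both groups with the FOXM1 siRNA lay wholly below siNeg, and the siCENPF libraries spread from 35.1 to 94.7. Its log2 fold changes were -0.84 ± 0.24, -0.59 ± 0.24 and -1.08 ± 0.24 (SE), with limma Benjamini-Hochberg adjusted p of 0.027, 0.18 and 0.00374 with the block and 0.447, 0.947 and 0.169 without. The value in siFOXM1 was the largest fall in the set in any comparison with siNeg. With number 1, 2 or 3 left out, the blocked adjusted p (limma) was 0.053, 0.0936 and 0.124 in siCENPF+siFOXM1 and 0.00699, 0.0264 and 0.044 in siFOXM1. ANKRD33B, 4024 bases before it on the same strand, had log2 fold changes of -0.81, -0.09 and -1.20 in siCENPF+siFOXM1, siCENPF and siFOXM1 at an average of 29.2 normalized counts. It was called lower in siFOXM1 with the block (limma, Benjamini-Hochberg adjusted p 0.0119) and not without it (0.136).

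RP11-844P9.2 (chr5:176143085-176199295, minus strand, hg38) had 111, 110.2 and 119 normalized counts with siCENPF+siFOXM1, 93.5, 154 and 153 with siCENPF, 97.2, 102 and 90.0 with siFOXM1 and 171, 171 and 158 with siNeg. All 3 knockdown groups lay below siNeg without overlap. The log2 fold changes were -0.56 ± 0.16, -0.36 ± 0.16 and -0.78 ± 0.16 (SE), with limma Benjamini-Hochberg adjusted p of 0.0326, 0.254 and 0.00201 with the block, and 0.0853 in siFOXM1 without it. With number 1, 2 or 3 left out, the blocked adjusted p (limma) was 0.114, 0.11 and 0.107 in siCENPF+siFOXM1 and 0.0127, 0.00678 and 0.0338 in siFOXM1. Its partner on the opposite strand, RP11-826N14.4, averaged 13.6 normalized counts, under the minimum for the set. It had log2 fold changes of -1.31, -0.38 and -1.43 in siCENPF+siFOXM1, siCENPF and siFOXM1, with limma Benjamini-Hochberg adjusted p of 0.0521, 0.718 and 0.0302 with the block, so it was called lower in siFOXM1. RP11-145M9.4 fell by 0.27 on the log2 scale in siCENPF+siFOXM1 (limma with the block, Benjamini-Hochberg adjusted p 0.0365). RP11-572C15.6 fell in siFOXM1, at -0.47 ± 0.13, and RP11-203M5.8 in siCENPF, at -0.29 ± 0.08 (limma with the block, Benjamini-Hochberg adjusted p 0.0266 and 0.0332). RP11-572C15.6 was named after its values were seen. RP11-145M9.4 and RP11-572C15.6 are not listed in GENCODE v29, and each overlaps a protein-coding gene on the same strand. Their reads may thus not be told apart from those of that gene. With 1 number left out, RP11-145M9.4 was called only without number 2 and RP11-572C15.6 only without number 1, and RP11-203M5.8 in no such fit.

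**Figure D3:**
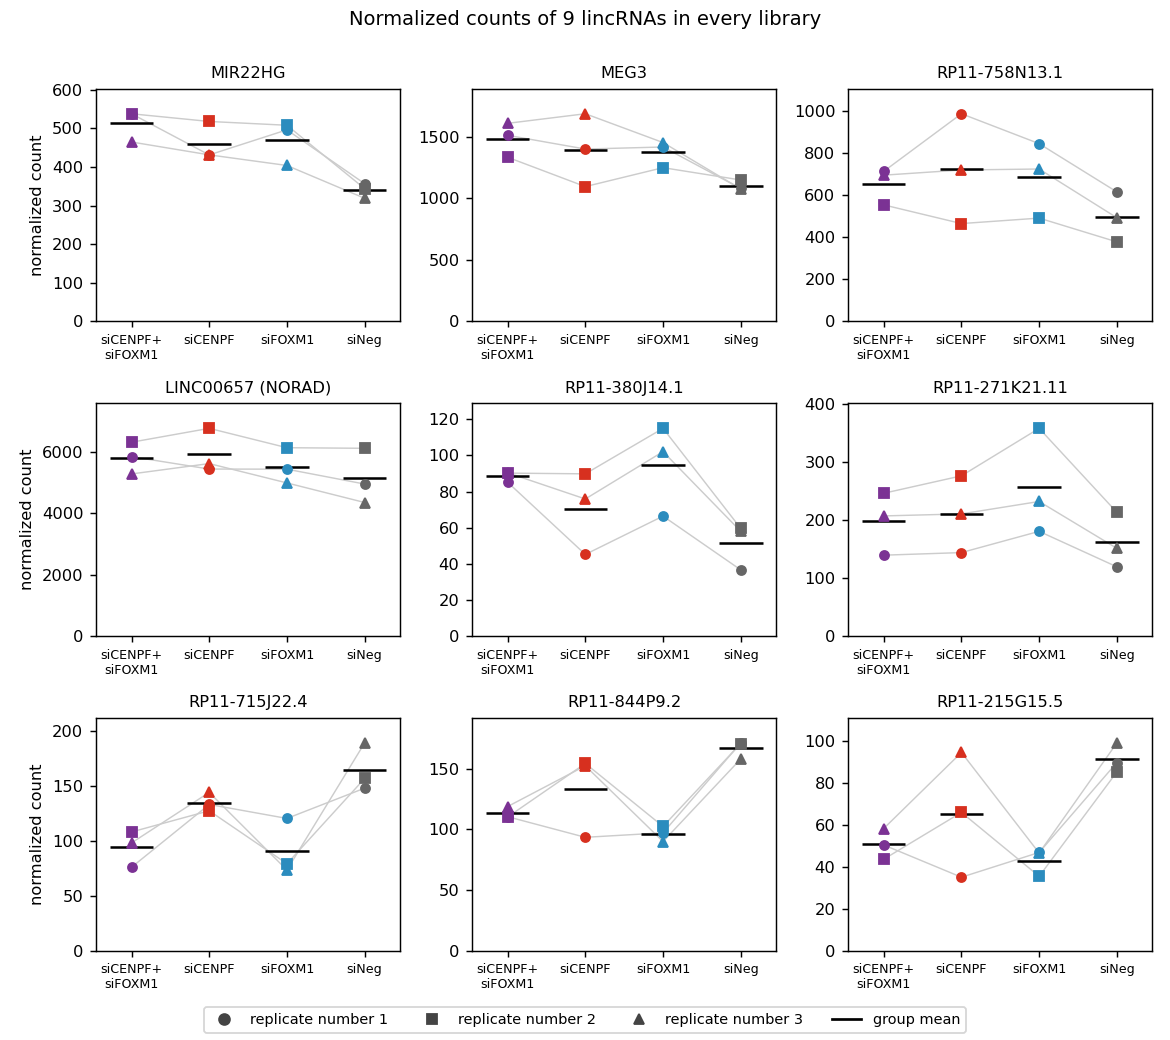
Normalized counts of 9 lincRNAs in every library, by siRNA group. Circles, squares and triangles are replicate numbers 1, 2 and 3, grey lines join libraries of the same number and black bars are group means. MIR22HG runs from 319 to 357 in siNeg and from 404 to 538 in the knockdowns, while RP11-758N13.1 and RP11-271K21.11 keep their order of numbers in every group.

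Some of the lincRNAs lie across a protein-coding gene, and the values of both were set side by side. RP11-715J22.4 (chr16:2456252-2459979, minus strand, hg38) overlaps CCNF, which encodes the cell cycle protein cyclin F on the plus strand, and shares 219 of its 879 exon bases with the other strand. It had 75.7, 108 and 97.8 normalized counts with siCENPF+siFOXM1, 133, 127 and 144 with siCENPF, 120.1, 78.9 and 73.2 with siFOXM1 and 148, 156 and 189 with siNeg. Every knockdown library was below every siNeg library. Its log2 fold changes were -0.81 ± 0.18, -0.28 ± 0.18 and -0.88 ± 0.18 (SE), with limma Benjamini-Hochberg adjusted p of 0.00502, 0.475 and 0.00214 with the block. With number 1, 2 or 3 left out, the blocked adjusted p (limma) was 0.0322, 0.00483 and 0.07 in siCENPF+siFOXM1 and 0.000909, 0.0148 and 0.142 in siFOXM1. CCNF had 808, 769 and 761 normalized counts with siCENPF+siFOXM1, 1006, 1051 and 1186 with siCENPF, 809, 799 and 742 with siFOXM1 and 1189.6, 1225 and 1260.5 with siNeg. CCNF passed limma without the block in siCENPF+siFOXM1 and siFOXM1, at -0.65 ± 0.08 and -0.64 ± 0.08 (Benjamini-Hochberg adjusted p 0.00227 and 0.0025). The counts of RP11-715J22.4 were 9.36% to 14.98% of those of CCNF.

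The ratio was narrower in other pairs, which were picked after their values were seen. RP11-203M5.8 shares 492 of 492 exon bases with exons of the opposite strand, where PNP encodes purine nucleoside phosphorylase. RP11-203M5.8 varied by 25.3% over the 12 libraries (coefficient of variation). PNP varied by 25.5% and the ratio of the pair by 4.53%, between 25.3% and 29.6% of the PNP count. PNP had log2 fold changes of -0.26 in siCENPF+siFOXM1, -0.38 in siCENPF and -0.11 in siFOXM1, and was called lower with the block in the groups that held the CENPF siRNA (limma, Benjamini-Hochberg adjusted p 0.00506 and 0.000102, against 0.301 in siFOXM1). Between siCENPF+siFOXM1 and siFOXM1, PNP differed by -0.15 and was not called (limma with the block, Benjamini-Hochberg adjusted p 0.517). RP11-758N13.1 shares 188 of 1738 exon bases with the other strand, where GREM1 encodes a secreted inhibitor of bone morphogenetic proteins. It varied by 27.3%, GREM1 by 27.5% and their ratio by 6.49%. GREM1 had log2 fold changes of 0.36 in siCENPF+siFOXM1, 0.42 in siCENPF and 0.34 in siFOXM1, and with the block it was called higher in each (limma, Benjamini-Hochberg adjusted p 0.000261, 3.93e-05 and 0.000365), as was RP11-758N13.1. RP11-79P5.2, which shares 424 of 424 exon bases with exons of the opposite strand at FOXD1, stood at 23.0% to 28.5% of the FOXD1 count. What share of these reads came from either strand was not tested.

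**Figure D4:**
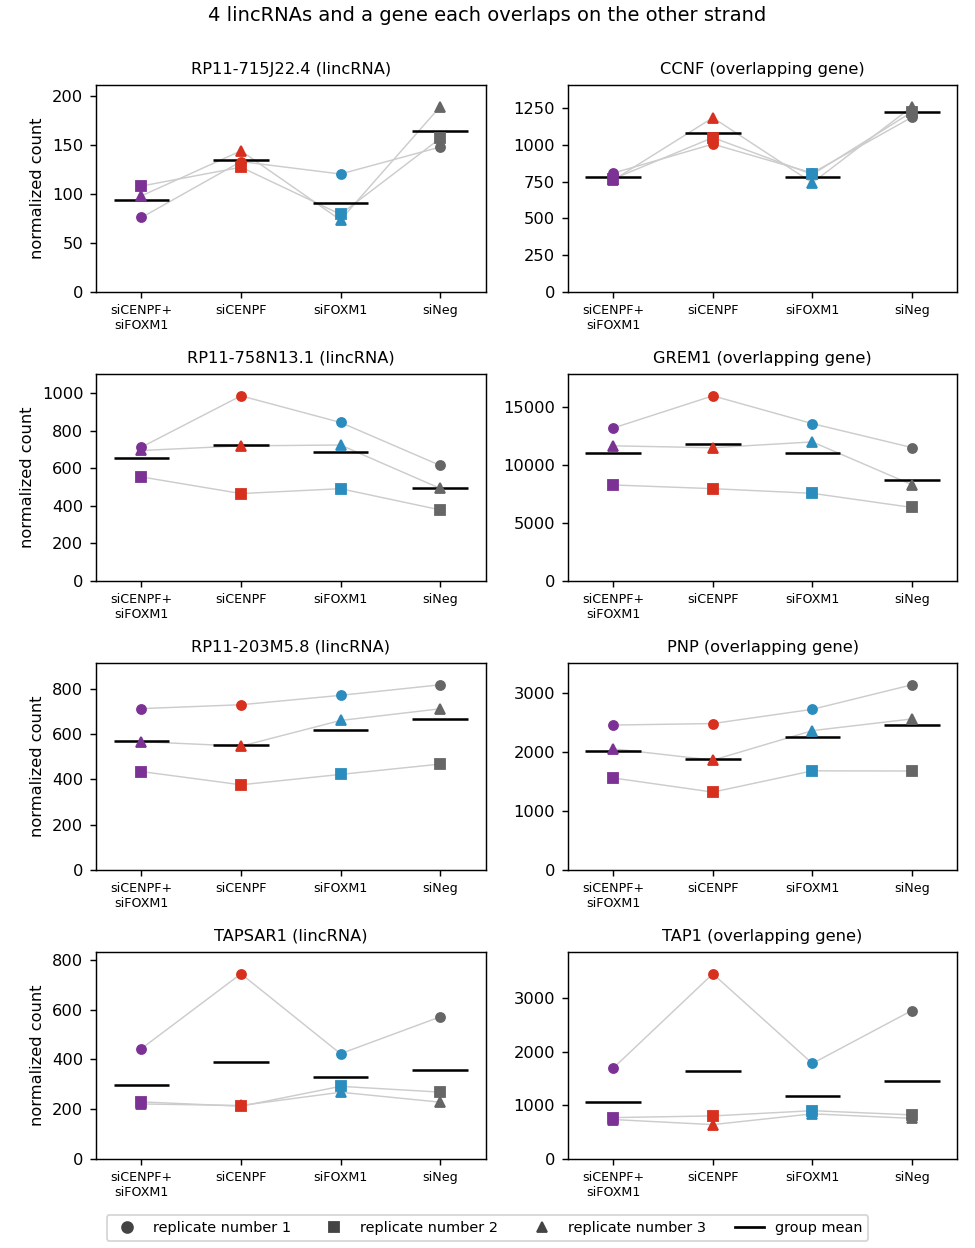
Normalized counts by library of 4 lincRNAs (left) and of a protein-coding gene that each overlaps on the other strand (right), by siRNA group. Symbols are replicate numbers, grey lines join the same number and bars are group means. RP11-203M5.8 stands at 25.3% to 29.6% of PNP, RP11-715J22.4 at 9.36% to 14.98% of CCNF, and TAPSAR1 and TAP1 are both highest in siCENPF library 1.

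No lincRNA was called between both siRNAs together and either alone. For siCENPF+siFOXM1 against siFOXM1, limma with Benjamini-Hochberg adjustment called 0 of 195 without the block (0.00673% of all genes) and 0 with it (0.296%), with 2 and 10 at an unadjusted p under 0.05. For siCENPF+siFOXM1 against siCENPF it called 0 without the block (0.0808%) and 0 with it (1.46%), with 3 and 22 at an unadjusted p under 0.05. edgeR called 0 in both, with and without the block. The interaction is the log2 fold change with both siRNAs minus the summed log2 fold changes of the single ones. It called 0 lincRNAs without the block, where 0% of all genes were called and 2 lincRNAs had an unadjusted p under 0.05, and 2 with it, where 0.841% of all genes were called. These were RP11-271K21.11 and RP11-758N13.1, with interactions of -0.73 ± 0.17 and -0.55 ± 0.13 (SE; Benjamini-Hochberg adjusted p 0.0262 and 0.0448 by limma with the block). With number 1, 2 or 3 left out, the blocked adjusted p (limma) of the interaction was 0.185, 0.271 and 0.222 for RP11-271K21.11 and 0.673, 0.0007 and 0.439 for RP11-758N13.1. In RP11-758N13.1 the log2 fold change with both siRNAs, 0.42, was no larger than with either alone, 0.51 and 0.46.

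Replicate number gave more calls than any siRNA. Limma with Benjamini-Hochberg adjustment called 56 of the 195 between number 1 and numbers 2 and 3, 20 higher and 36 lower in number 1, where 30.9% of all genes tested were called. Between numbers 2 and 3 it called 57, 35 higher and 22 lower in number 2, against 33.5% of all genes. The lincRNAs were thus called about as often as other genes. In the set, the median share of variance that went with number was 39.3% and that with siRNA group 20.96%, against 41.0% and 22.2% over all genes tested. Both shares also hold noise, and more of it for group, with 4 levels against 3 for number. The 20.96% is thus not the part that the siRNAs explain. Number carried more than group in 125 of the 195 (64.1%), against 63.5% of all genes. Of the 83 lincRNAs called in at least 1 of these contrasts, 30 were called in both, and 0 of the 30 had the same sign in both. The same counts were not made over all genes tested, so they are not a result about lincRNAs. The labels do not say what a number stands for.

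TAPSAR1, now PSMB8-AS1, rose most in number 1. In libraries numbered 1 it had 443, 744, 422 and 570.3 normalized counts in siCENPF+siFOXM1, siCENPF, siFOXM1 and siNeg. The libraries numbered 2 and 3 held 211 to 291, all below those values. The log2 difference of number 1 from 2 and 3 was 1.15 ± 0.14 (limma, Benjamini-Hochberg adjusted p 6.27e-05). The lincRNA lies among genes of antigen processing on chromosome 6 and shares 1074 of its 1951 exon bases with the opposite strand, where TAP1 encodes a peptide transporter. TAP1 had 1694, 3458, 1779.8 and 2771 normalized counts in the number 1 libraries in the same order and 635 to 896 in the others. TAP2, PSMB8 and PSMB9, neighbours with roles in the same pathway and known to respond to interferon, were also higher in number 1, at 0.91, 0.47 and 1.04 on the log2 scale. In siCENPF library 1, the highest, TAPSAR1 stood at 21.5% of TAP1.

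AC003092.1, RP11-203M5.8, RP11-758N13.1 and SFTA1P completed the largest rises in number 1, at 0.81, 0.57, 0.50 and 0.46 on the log2 scale. MALAT1 was called too, at 0.44 ± 0.09 (limma, Benjamini-Hochberg adjusted p 0.00629). The largest falls were those of RP11-304L19.5, the small nucleolar RNA host SNHG19, at -0.998 ± 0.21, of AF127936.7 at -0.86 ± 0.18, of RP13-463N16.6 (LASTR) at -0.78 ± 0.18, of RP5-1172A22.1 at -0.73 ± 0.09 and of RP11-271K21.11 at -0.67 ± 0.09 (SE). RP11-304L19.5 had 142, 78.3, 158 and 147 normalized counts in number 1 libraries of siCENPF+siFOXM1, siCENPF, siFOXM1 and siNeg, and 167 to 375 in the others. Its neighbour RAB26, 632 bases away, differed by -1.19 in the same contrast. NORAD was not called between number 1 and the others (-0.06 ± 0.04; adjusted p by limma 0.261), but was higher in number 2 than in number 3, at 0.33 ± 0.05 (adjusted p 5.02e-06). LINC00704 was lower in number 1, at -0.43 ± 0.05, and higher in number 2 than in number 3, at 0.44 ± 0.06, and had no call in any siRNA comparison.

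**Figure D5:**
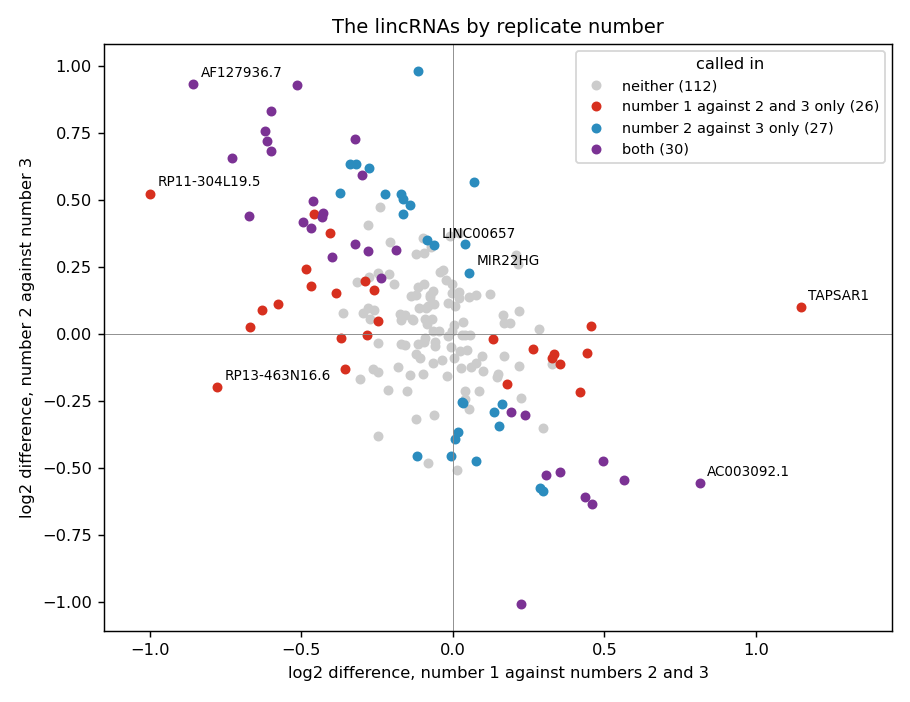
Log2 difference of replicate number 1 from numbers 2 and 3 (horizontal) and of number 2 from number 3 (vertical) for each of the 195 lincRNAs. Colours give the calls by limma: 26 in the first contrast only, 27 in the second only, 30 in both and 112 in neither. The lincRNAs called in both lie to the upper left and lower right, and TAPSAR1 stands alone at 1.15.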

How the data were processed

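PolyA RNA-seq of 12 hTERT-RPE1 libraries, 3 in each of 4 siRNA groups given by the labels, was analysed. The submitters' processing notes name bcl2fastq, Trimmomatic, TopHat, edgeR and hg38, with no versions. The normalized counts deposited by the authors, a signal per gene on a common scale, come from a scaling method that, like the strand setting, the sources used here do not give. The authors' deposited tables also hold CPM, FPKM, p-values, log2 fold changes and a score (a likelihood ratio), per the file headers. The score was not used, and FPKM served for marker levels and as an alternative.

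The members and lists were chosen with earlier results of these data known. Log2(normalized count + 1) was fitted for 14857 genes (10 normalized counts or more in 3 libraries or more) using limma 3.58.1 (R 4.3.3; trend and robust variance, 4 group means), with Benjamini-Hochberg adjustment over all genes at 0.05. A fold change on this scale understates that of low genes. The interaction is the log2 fold change with both siRNAs minus the sum of those with each alone. Replicate numbers paired the libraries: same-numbered libraries of different groups deviated together in all 18 pairs (correlation of deviations from group means 0.272 to 0.639), and other numbers did not (-0.510 to 0.0248). Hence values with the number as a block stand beside those without.

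Dividing CPM by the value of 1 read gave whole numbers in 100% of values within 0.01 reads, and these recovered reads were tested with edgeR 4.0.16 over 14150 genes. In each library the lowest member had 14 to 66 reads. Named were members called in any siRNA comparison without the block, up to 5 a direction among those called with it and with separate groups, the 10 highest, the 5 largest differences a direction by number, 3 on each side of the minimum, and members of the role lists; a few genes that met these rules are not reported here. Gene positions are those of the deposited tables on hg38, exons those of GENCODE v29 and sequences those of RefSeq (GRCh38.p14). The fitting without the block was tested on simulated data that held no effect of replicate number. The fit with the block was not tested in this way.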

Additional observations from a re-analysis of the deposited data

Results flagged for a closer look

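For RP11-271K21.11 and RP11-758N13.1 the effect of either siRNA differed with and without the other when all 12 libraries were used, by the interaction in limma with the replicate block. The log2 interaction was -0.73 for RP11-271K21.11 (Benjamini-Hochberg adjusted p 0.0262). Within numbers 1, 2 and 3 its siCENPF+siFOXM1 libraries lay below the siFOXM1 libraries, at 139, 246 and 207 against 181, 358 and 232 normalized counts. For RP11-758N13.1 the interaction was -0.55 (limma, Benjamini-Hochberg adjusted p 0.0448). Without the block the adjusted p by limma was 1 for each. Under the block, with number 1, 2 or 3 left out, it was 0.185, 0.271 and 0.222 for RP11-271K21.11, no longer a call in any, and 0.673, 0.0007 and 0.439 for RP11-758N13.1, a call only without number 2. RP11-758N13.1 overlaps GREM1, whose interaction was -0.41 (limma with the block, adjusted p 0.0125), and RP11-271K21.11 overlaps TFDP2, whose interaction was 0.07 (0.987). The part of the overlapping genes in these values was not tested.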

How the results depend on the processing

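The replicate block changed most counts of calls. It gave 12, 7 and 16 called lincRNAs in siCENPF+siFOXM1, siCENPF and siFOXM1 against siNeg and 2 for the interaction, against 0 without it, and edgeR with the block gave 13, 7, 17 and 2. With the block, leaving out all libraries numbered 1, 2 or 3, which was added after seeing the data as was edgeR with the block, gave 3, 13 and 2 in siCENPF+siFOXM1, 3, 5 and 2 in siCENPF, and 9, 15 and 5 in siFOXM1. Leaving out number 1 also gave 1 call between siCENPF+siFOXM1 and siCENPF (RP11-572C15.6), and leaving out number 2 gave 1 for the interaction (RP11-758N13.1). Without the block, a minimum mean of 50 gave 1 call in siCENPF+siFOXM1 (MIR22HG). Leaving out 1 library in turn gave 0 to 1 there, 0 to 2 in siFOXM1 and 0 in the other 4. The calls were MIR22HG without siCENPF 2 or siFOXM1 3, RP11-215G15.5 and RP11-844P9.2 without siCENPF 1, and RP11-715J22.4 without siFOXM1 1. Calls by number ran from 38 to 56 and from 43 to 62, and the FPKM table gave 48 and 43. The cause was not tested.

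The median log2 fold change of the set ran from 0.040 to 0.084 in siCENPF+siFOXM1 and from 0.036 to 0.076 in siFOXM1 with 1 library left out. It was 0.036 in siCENPF+siFOXM1 with the block and number 3 left out, and in siFOXM1 it was 0.038 in the FPKM table and 0.078 with the block and number 1 left out. In siCENPF it ran from -0.031 to 0.039 with 1 library left out. At 14 to 66 reads for the lowest member in each library, and a median SE of 0.20 (0.15 with the block), small changes were not detectable.

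For 52 lincRNAs, 163 values were recomputed in 3674 ways. Direction and side of the threshold held in 3353, 130 became calls, mostly with the block, and 191 turned sign. None of the 191 was called by limma as reported, and none under the alternative. The values that turned are all log2 fold changes against siNeg. In the FPKM table, the turned values in siCENPF+siFOXM1 were AF127936.7 (-0.0034). For siCENPF they were EPB41L4A-AS1 (-0.0033) and LINC00511 (-0.020). For siFOXM1 they were MIR29A (0.0039). By edgeR, the turned values in siCENPF+siFOXM1 were CRNDE (0.0087). For siCENPF they were TAPSAR1 (0.13), TP53TG1 (0.025) and LINC00511 (-0.025). For siFOXM1 they were LINC00704 (0.0073) and MIR29A (0.0024). By edgeR with the block, the turned values in siCENPF were XIST (0.0013) and TAPSAR1 (0.052). For siFOXM1 they were MIR29A (0.0024). With a pseudocount of 10, the turned values in siFOXM1 were MIR29A (5.45e-05). With the block and number 1 left out, the turned values in siCENPF+siFOXM1 were TP53TG1 (0.017) and CRNDE (0.054). For siCENPF they were RP11-400K9.3 (-0.012), RP11-400K9.4 (-0.024), TSIX (-0.0047), LINC00704 (0.041), RP11-304L19.5 (0.068) and RP13-463N16.6 (0.083). For siFOXM1 they were TSIX (-0.031), LINC00704 (0.035), TAPSAR1 (0.18), MIR29A (0.11) and hsa-mir-8072 (-0.20). With the block and number 2 left out, the turned values in siCENPF+siFOXM1 were MIR155HG (-0.017), MIR4435-1HG (-0.025) and MIR4458HG (-0.13). For siCENPF they were XIST (0.33), RP11-79P5.2 (-0.12), TAPSAR1 (0.15), SNHG8 (-0.057), SNHG15 (-0.023), EPB41L4A-AS1 (-0.035), MIR155HG (-0.16), RP6-99M1.2 (-0.031), MIR4458HG (-0.23) and LINC00152 (-0.079). For siFOXM1 they were RP11-79P5.2 (-0.020), AC003092.1 (-0.078), MIR4435-1HG (-0.082), MIR4458HG (-0.090) and CRNDE (-0.13). With the block and number 3 left out, the turned values in siCENPF+siFOXM1 were AF127936.7 (-0.048), MIR29A (-0.040), CRNDE (0.048) and LINC00511 (-0.12). For siCENPF they were TSIX (-0.13), AF127936.7 (-0.15), RP13-463N16.6 (0.12), TAPSAR1 (0.019), AC003092.1 (-0.11), SNHG18 (-0.068), EPB41L4A-AS1 (-0.0063), RP6-99M1.2 (-0.0069), LINC00472 (-0.033), TP53TG1 (0.065), CRNDE (0.046), LINC00511 (-0.11) and hsa-mir-8072 (0.0064). For siFOXM1 they were XIST (-0.050), RP11-867G23.3 (0.0024), TSIX (-0.035), LINC00704 (0.0017), EPB41L4A-AS1 (0.0035), RP6-99M1.2 (-0.15), MIR29A (0.24), LINC00152 (0.029), LINC00511 (-0.061) and RP1-151F17.2 (-0.082). With 1 library left out in turn, values in siCENPF+siFOXM1 ran as follows: LINC00704 from -0.13 to 0.19, AF127936.7 from -0.26 to 0.40, TAPSAR1 from -0.54 to 0.19, AC003092.1 from -0.16 to 0.57 and SNHG15 from -0.047 to 0.34. EPB41L4A-AS1 ran from -0.087 to 0.19, RP6-99M1.2 from -0.091 to 0.46, MIR4435-1HG from -0.018 to 0.11, MIR4458HG from -0.071 to 0.27 and MIR29A from -0.095 to 0.21 in siCENPF+siFOXM1. TP53TG1 ran from -0.47 to 0.13, CRNDE from -0.16 to 0.13, LINC00152 from -0.10 to 0.022 and LINC00511 from -0.13 to 0.35 in siCENPF+siFOXM1. With 1 library left out in turn, values in siCENPF ran as follows: RP11-400K9.4 from -0.071 to 0.16, XIST from -0.23 to 0.17, TSIX from -0.095 to 0.23, LINC00704 from -0.23 to 0.16 and RP11-79P5.2 from -0.091 to 0.14. RP11-304L19.5 ran from -0.74 to 0.39, AF127936.7 from -0.33 to 0.55, RP13-463N16.6 from -0.42 to 0.31, TAPSAR1 from -0.62 to 0.39 and AC003092.1 from -0.18 to 0.64 in siCENPF. SNHG8 ran from -0.060 to 0.29, SNHG15 from -0.045 to 0.34, SNHG18 from -0.048 to 0.39, EPB41L4A-AS1 from -0.14 to 0.22 and MIR155HG from -0.063 to 0.32 in siCENPF. RP6-99M1.2 ran from -0.29 to 0.29, MIR4458HG from -0.089 to 0.26, TP53TG1 from -0.45 to 0.37, CRNDE from -0.27 to 0.0055 and LINC00152 from -0.048 to 0.075 in siCENPF. LINC00511 ran from -0.22 to 0.24 and RP1-151F17.2 from -0.027 to 0.39 in siCENPF. With 1 library left out in turn, values in siFOXM1 ran as follows: LINC00657 from -0.00080 to 0.25, TSIX from -0.059 to 0.23, C11orf95 from -0.036 to 0.058, LINC00704 from -0.23 to 0.15 and AF127936.7 from -0.044 to 0.75. RP13-463N16.6 ran from -0.54 to 0.056, RP5-1172A22.1 from -0.16 to 0.52, TAPSAR1 from -0.29 to 0.38, AC003092.1 from -0.13 to 0.60 and RP11-203M5.8 from -0.35 to 0.14 in siFOXM1. SFTA1P ran from -0.42 to 0.12, SNHG15 from -0.024 to 0.36, SNHG18 from -0.069 to 0.37, EPB41L4A-AS1 from -0.16 to 0.076 and RP6-99M1.2 from -0.17 to 0.41 in siFOXM1. MIR4435-1HG ran from -0.075 to 0.048, MIR29A from -0.17 to 0.20, TP53TG1 from -0.57 to 0.027, CRNDE from -0.16 to 0.16 and LINC00152 from -0.083 to 0.052 in siFOXM1. LINC00511 ran from -0.19 to 0.31, hsa-mir-8072 from -0.066 to 0.33 and RP1-151F17.2 from -0.023 to 0.21 in siFOXM1.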
